A study of Homo sapiens with 4 samples.

Results

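The collagen genes are the genes that encode the alpha chains of collagen. They were taken as every gene whose symbol is COL, a number, A and a number, among probe sets with exactly 1 gene symbol in the platform annotation. The rule found 43 of the 19740 named genes, covered by 112 probe sets, and each gene was read from its probe set with the highest mean log2 signal over all 4 arrays. The rule used symbols and the mean signal, not any difference between arrays. RNA from human lung adenocarcinoma cells in culture was hybridised to 4 expression arrays, 1 for each of 4 groups, with no replicates. The groups were CL1-0 cells with a PSAT1 expression vector, CL1-0 cells with an empty vector, CL1-5 cells with a short hairpin against PSAT1, and CL1-5 cells with a non-silencing hairpin. Each was a stable transductant after 2 weeks of puromycin selection, per the labels. CL1-5 is a more invasive subline of CL1-0, and PSAT1 (phosphoserine aminotransferase) is an enzyme of serine synthesis, the route that also supplies glycine. The labels do not say whether a stable line was a pool or 1 clone.

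Collagens are secreted or membrane-bound proteins in which alpha chains wind into a triple helix, whose glycine-rich repeat needs hydroxylated proline to stay folded. Fibrillar collagens form the fibres of connective tissue, type IV forms the sheet of basement membranes, type VI forms beaded microfilaments around cells, and fibril-associated collagens decorate fibres. In lung, fibroblasts make most of the fibrillar collagen, while epithelial cells rest on a type IV network. Carcinoma cells also transcribe collagen genes, and COL11A1 is best known from the fibroblasts of carcinoma stroma.

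The promoter windows of 4 members are shown as examples, and no ratio rests on them. No window was available for COL5A2, COL3A1 or COL6A1, which also differed 2-fold or more in a comparison. COL11A1 had the largest collagen difference with PSAT1 in CL1-0 and COL6A3 the largest with the PSAT1 hairpin in CL1-5, and COL4A1 and COL4A2 stand head to head and had near-equal ratios in the PSAT1 comparisons. Each window runs from 250 bases before to 50 bases after a transcription start, 5′ to 3′ on the gene's strand, from RefSeq on GRCh38.p14. Capitals mark matches on either strand to a GC box (GGGCGG), to a CCAAT box, to a TATA box (TATAAA) or to the AP-1 core (TGANTCA). No matches overlap in the 4 windows shown. The windows are chr1:103108473-103108772 (minus strand) for COL11A1, chr2:237414115-237414414 (minus strand) for COL6A3, chr13:110307108-110307407 (minus strand) for COL4A1 and chr13:110307034-110307333 (plus strand) for COL4A2.
COL11A1: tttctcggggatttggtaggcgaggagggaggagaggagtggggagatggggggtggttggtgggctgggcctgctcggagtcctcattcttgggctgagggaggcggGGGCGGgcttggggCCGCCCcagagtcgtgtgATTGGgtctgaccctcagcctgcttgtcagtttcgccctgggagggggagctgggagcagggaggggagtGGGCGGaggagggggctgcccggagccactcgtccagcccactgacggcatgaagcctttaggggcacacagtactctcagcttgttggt
COL6A3: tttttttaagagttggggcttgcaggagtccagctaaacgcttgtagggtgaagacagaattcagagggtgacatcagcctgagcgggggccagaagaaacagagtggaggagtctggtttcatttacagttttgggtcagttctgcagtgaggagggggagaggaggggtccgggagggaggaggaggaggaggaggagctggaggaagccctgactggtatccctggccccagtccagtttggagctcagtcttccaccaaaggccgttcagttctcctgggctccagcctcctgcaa
COL4A1: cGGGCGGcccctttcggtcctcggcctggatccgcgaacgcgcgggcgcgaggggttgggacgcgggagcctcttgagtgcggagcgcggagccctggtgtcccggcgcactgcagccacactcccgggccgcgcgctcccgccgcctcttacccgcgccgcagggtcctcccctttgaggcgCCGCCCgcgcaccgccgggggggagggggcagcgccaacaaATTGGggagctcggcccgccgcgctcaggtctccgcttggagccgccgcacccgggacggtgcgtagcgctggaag
COL4A2: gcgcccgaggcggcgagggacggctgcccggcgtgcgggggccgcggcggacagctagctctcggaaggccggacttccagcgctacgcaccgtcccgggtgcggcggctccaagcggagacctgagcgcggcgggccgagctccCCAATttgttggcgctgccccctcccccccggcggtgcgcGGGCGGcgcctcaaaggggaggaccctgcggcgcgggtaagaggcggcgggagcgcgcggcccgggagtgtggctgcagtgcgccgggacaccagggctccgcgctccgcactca

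The COL11A1 window held 3 GC boxes and 1 CCAAT, and the COL6A3 window held none of the 4 motifs. The COL4A1 and COL4A2 windows share 226 bases, chr13:110307108-110307333, with the annotated starts 127 bases apart on opposite strands. The CCAAT at chr13:110307179-110307183 and the GC box at chr13:110307219-110307224 therefore lie in the windows of both genes. Windows were found for 31 of the 43 genes, 43 windows in all. Of these 55.8% held a GC box, 30.2% CCAAT, 16.3% TATAAA and 2.33% TGANTCA, beside 45.0%, 34.6%, 11.5% and 7.71% of all 35116 windows of this length, in that order. The TGANTCA share of the collagen windows is 1 window. More than 1 window was found for 8 genes, and some windows overlap, so the shares count some bases more than once. Median GC content was 64.0% in the collagen windows and 58.7% in all windows. The other type IV genes are paired in the same way, with 82 bases shared by COL4A3 and COL4A4 and 121 by COL4A5 and COL4A6. A match is a run of letters, and no binding was measured.

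The deposited signals are linear and come without detection calls. Signals below 49.0, which is the pooled median of the arrays without control probe sets, were raised to that floor before taking log2. A gene counted as measured in a comparison if at least 1 of its arrays was above the floor. Where the other array was at or below it, the fold is a lower bound and is written "at least". Without replicates there is no test, and "rose", "fell", "higher" and "lower" mean 2-fold or more between 2 arrays. A difference between 2 arrays also holds culture, selection and labelling, whose part was not tested. Probe sets of the same gene differed in log2 ratio with an SD of 0.29 for PSAT1 against vector, 0.17 for hairpin against non-silencing and 0.51 for the line comparison. PSAT1 read 143 with its hairpin against 1760 with the non-silencing hairpin in CL1-5, and 5494 with PSAT1 vector against 4214 with empty vector in CL1-0. Its second probe set read 107 against 384 in CL1-5 and 1617 against 1509 in CL1-0, in the same order. The fall with the hairpin was thus 12.3-fold or 3.58-fold, and in CL1-0 neither set reached 2-fold (1.30-fold and 1.07-fold). The CL1-5 arrays had lower 75th percentiles (173 with the PSAT1 hairpin, 177 non-silencing) than the CL1-0 arrays (272 with PSAT1, 252 with vector), and 3'/5' ratios of the ACTB controls of 1.38, 1.34, 1.22 and 1.18 in the same order. Of the 112 collagen probe sets, 6 had the same deposited value on both CL1-0 arrays and 4 on both CL1-5 arrays, as against 0 on the controls of the lines. Signals of different probe sets are not compared with each other, since probes differ in brightness.

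Of the 43 collagen genes, 14 were above the floor on all arrays, 12 on 1 to 3 arrays and 17 on none. The array of CL1-0 with PSAT1 had 20 collagen genes above the floor against 21 with vector, and that of CL1-5 with the PSAT1 hairpin had 18 against 19 with the non-silencing hairpin. The 17 genes below the floor throughout, at signals of 5.09 to 35.1, were COL1A2, COL2A1, COL4A3, COL4A4, COL4A6, COL6A5, COL6A6, COL8A1, COL8A2, COL10A1, COL12A1, COL14A1, COL15A1, COL19A1, COL21A1, COL24A1 and COL28A1. They hold all 3 short-chain collagens, and no ratio was taken for them.

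**Figure D1:**
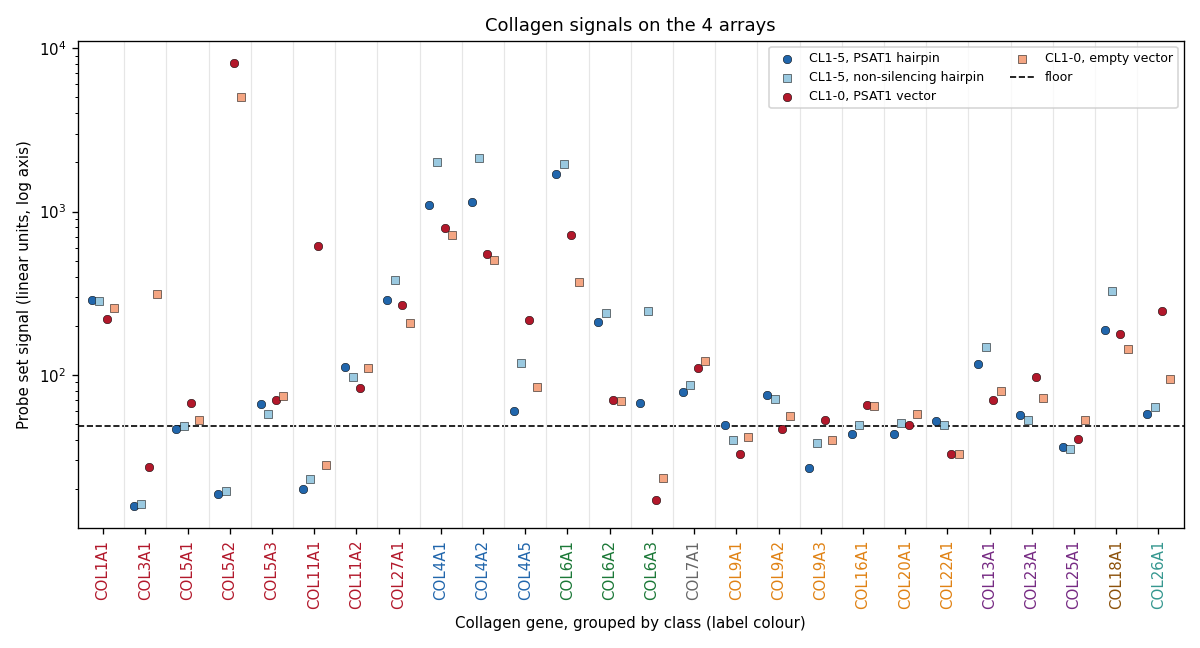
Signal of each collagen gene above the floor on at least 1 array. The vertical axis is probe set signal in linear units on a log axis, points are single arrays, label colours give the collagen class and the dashed line is the floor at 49.0. COL5A2 and COL6A3 separate the cell lines, COL11A1 stands above the floor only on the CL1-0 PSAT1 array and COL3A1 only on the CL1-0 vector array.

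In CL1-0 with PSAT1, COL11A1, COL26A1 and COL4A5 rose and COL3A1 fell. These are 3 rises and 1 fall among 23 measured collagen genes, while 2.41% of the 13167 measured genes of any kind rose and 1.0% fell. COL11A1 and COL3A1 passed the floor only through the array on which they were high, so the counts describe these arrays and nothing more. At 1.5-fold, COL6A1 and COL5A2 joined as 5 higher (8.97% of all measured genes). The median log2 ratio was 0.11 over the 23 and -0.02 over all measured genes.

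In CL1-5 with the PSAT1 hairpin, COL6A3 fell and no collagen gene rose. That is 1 fall among 20 measured members, with 0.405% of 12852 measured genes lower and 0.389% higher. At 1.5-fold there were 5 lower members, COL6A3, COL4A5, COL4A2, COL4A1 and COL18A1, and 0 higher, with 2.12% of all measured genes lower and 1.67% higher. The median log2 ratio was -0.14 over the 20 and 0.02 over all measured genes. Ratios of any size were negative in 13 and positive in 7 of the 20, and 3 of the 20 had 1 array at or below the floor. Signs were not counted over all measured genes.

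Between the control arrays, CL1-5 had higher COL4A1, COL4A2, COL6A1, COL6A2, COL6A3 and COL18A1 and lower COL3A1 and COL5A2 than CL1-0. These 6 higher and 2 lower members were among 23 measured, while 5.14% of 13706 measured genes were higher and 24.7% lower. Of the control arrays, COL3A1 and COL5A2 were above the floor only on that of CL1-0, and COL6A3 only on that of CL1-5. The counts thus describe these arrays and nothing more. As deposited, the median ratio of all measured genes was -0.48 on the log2 scale, and only 17.2% of the 2-fold differences were higher in CL1-5. Quantile normalization gave a median of 0.00, with 51.6% of differences higher, and the share of genes higher was 9.29% and lower 8.71%. Centring subtracted from each array the median log2 signal of a common set, the non-control probe sets with signals over 49.0 in every group. It gave a median of 0.09 and 54.1% of differences higher, with 10.1% of genes higher and 8.59% lower. The 6 higher and 2 lower collagen genes kept their calls under both, and COL13A1 and COL27A1 joined the higher ones, as did COL4A5 under centring alone. The collagen median was 0.02 as deposited, 0.41 under quantile normalization and 0.45 under centring. The line comparison shares the non-silencing array with the hairpin comparison and the vector array with the PSAT1 comparison.

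**Figure D2:**
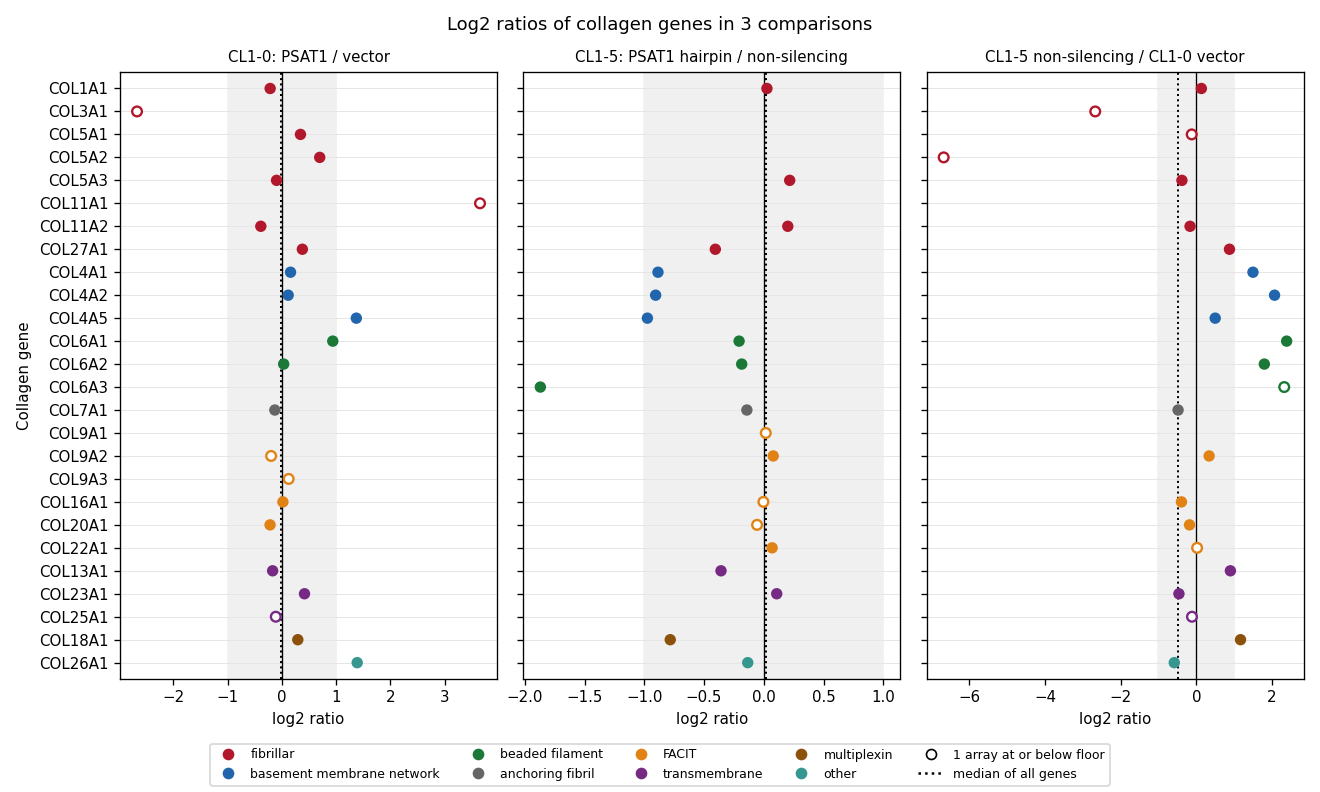
Log2 ratio of each collagen gene in the 3 comparisons. Each point is 1 gene, the horizontal axis is the log2 ratio of 2 arrays, the shaded band lies within 2-fold, open points are lower bounds and the dotted line is the median of all measured genes. COL11A1 at 3.65 and COL3A1 at -2.67 lie farthest out in CL1-0, COL6A3 at -1.87 in CL1-5 and COL5A2 at -6.68 between the lines.

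Among the fibrillar collagens, 8 of 11 were measured in the CL1-0 pair. COL11A1, a minor chain that helps set the width of cartilage fibrils, read 615 with PSAT1 against 28.0 with vector in CL1-0, and 20.0 with the PSAT1 hairpin against 23.0 with the non-silencing hairpin in CL1-5. Its signal was above the floor on the PSAT1 array alone, at least 12.6-fold higher than with vector. The other 2 probe sets went the same way, with 1093 against 48.0 (at least 22.3-fold) and 145 against 7.87 (at least 2.95-fold), and both were below the floor in CL1-5.

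COL3A1, the chain of type III collagen that accompanies type I in soft tissue, went the other way. In CL1-0 its signal was 27.4 with PSAT1 against 312 with vector, a fall of at least 6.37-fold, and it was 15.8 with the PSAT1 hairpin against 16.4 non-silencing in CL1-5. Only the vector array was above the floor. By another probe set the signals were 15.8 with PSAT1 against 180.1 with vector, a fall of at least 3.67-fold, and the other 3 were below the floor on all arrays, at 8.25 against 47.6 in one of them.

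COL5A2, a chain of type V collagen, which nucleates type I fibrils, is a neighbour of COL3A1 on chromosome 2. It read 8135 with PSAT1 against 5023 with vector in CL1-0 (log2 ratio 0.70), and 18.6 with the PSAT1 hairpin against 19.5 non-silencing in CL1-5. Its second probe set read 4041 against 2737 in CL1-0 (0.56), and 15.8 against 12.6 in CL1-5. The lines did not overlap, and CL1-5 non-silencing was at least 103-fold lower than CL1-0 vector by the first probe set and at least 55.8-fold by the second. The neighbours COL3A1 and COL5A2 were thus both below the floor in CL1-5, while in CL1-0 only COL3A1 fell with PSAT1.

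COL1A1, the main chain of type I collagen, read 221 with PSAT1 against 258 with vector in CL1-0, and 288 with the PSAT1 hairpin against 283 non-silencing in CL1-5. The 4 arrays were close by this probe set, an _x_at set whose probes may also bind other transcripts. Another probe set of COL1A1 gave a different picture, with 342 with PSAT1 against 194 with vector in CL1-0 (log2 ratio 0.82), and 54.0 with the PSAT1 hairpin against 22.4 non-silencing in CL1-5. By that set CL1-5 non-silencing was at least 3.95-fold lower than CL1-0 vector. The other 3 read 10.1 to 54.4. COL1A2, the partner chain of type I collagen, was below the floor on all arrays.

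COL27A1, a chain found in cartilage, read 268 with PSAT1 against 207 with vector in CL1-0 and 287 with the PSAT1 hairpin against 379.8 non-silencing in CL1-5. CL1-5 non-silencing was 1.84-fold over CL1-0 vector by this probe set and at least 5.08-fold by another. By their chosen probe sets, COL5A1, COL5A3 and COL11A2 lay between 46.6 and 112 on all arrays. Their log2 ratios were -0.39 to 0.34 in the 3 comparisons. The second COL11A2 set read 92.1 with PSAT1 against 87.1 with vector in CL1-0 (0.08, against -0.39 by the chosen set). By that set CL1-5 non-silencing read 44.4, below the floor, a log2 ratio of -0.83 or lower against CL1-0 vector. COL2A1 and COL24A1 were not measured.

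All 3 measured type IV genes had log2 ratios between -0.97 and -0.89 with the PSAT1 hairpin in CL1-5. COL4A1 and COL4A2, whose products form the common heterotrimer of basement membranes, are encoded next to each other on chromosome 13. COL4A1 read 1092 with the PSAT1 hairpin against 2017 non-silencing in CL1-5, and 796 with PSAT1 against 714 with vector in CL1-0. COL4A2 read 1139.7 against 2134 in CL1-5, and 550.4 against 509 in CL1-0, in the same order. Their log2 ratios were -0.89 and -0.91 with the hairpin and 0.16 and 0.11 with PSAT1, and each pair of ratios lay closer together than the SD between probe sets of a gene. The hairpin array lay below the non-silencing array and above both CL1-0 arrays for each gene. The second probe sets gave -0.55 (COL4A1) and -0.60 (COL4A2) with the hairpin, and 0.08 and -0.09 with PSAT1. Between the controls, CL1-5 was 2.82-fold higher for COL4A1 and 4.20-fold higher for COL4A2, and 2.42-fold and 2.92-fold by the second probe sets.

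COL4A5, on the X chromosome, belongs to the heterotrimers of more specialised basement membranes and is mutated in Alport syndrome. It read 217 with PSAT1 against 83.9 with vector in CL1-0, 2.59-fold higher, and 60.4 with the PSAT1 hairpin against 119 non-silencing in CL1-5 (log2 ratio -0.97, 1.96-fold). The array with PSAT1 vector was the brightest for this probe set and the array with the hairpin the dimmest. The signs of the ratios thus differed between the manipulations, a difference that was not tested. Its second probe set was below the floor throughout, at 12.7 to 15.7. COL4A6, its head-to-head partner, was also below the floor on all arrays, as were COL4A3 and COL4A4.

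Of the 5 type VI genes, 3 were measured in CL1-5 and were higher there by their chosen probe sets, and with the PSAT1 hairpin only COL6A3 of these fell. COL6A3, the largest chain of type VI collagen, read 67.2 with the PSAT1 hairpin against 245 non-silencing in CL1-5, 3.65-fold lower, and 17.3 with PSAT1 against 23.3 with vector in CL1-0. It has 1 probe set. Only the CL1-5 arrays were above the floor, and the controls differed by at least 5.01-fold, higher in CL1-5. COL6A1 and COL6A2, neighbours on chromosome 21, moved far less with the hairpin. COL6A1 read 1693 with the PSAT1 hairpin against 1954 non-silencing in CL1-5 (log2 ratio -0.21), and 714 with PSAT1 against 373 with vector in CL1-0 (0.94). COL6A2 read 211 against 240.1 in CL1-5 (-0.18) and 70.5 against 69.0 in CL1-0 (0.03), in the same order.

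The probe sets of COL6A1 disagreed in part. The chosen set gave CL1-5 non-silencing 5.24-fold over CL1-0 vector and another gave at least 2.98-fold, but the other 3 measured gave log2 ratios of -0.19 to 0.36. None of the 3 others measured in CL1-0 shared the 0.94 of the chosen set, with ratios of -0.31 to 0.00. COL6A2 had 2 probe sets, at 3.48-fold and 4.88-fold higher in CL1-5. COL6A5 and COL6A6, neighbours on chromosome 3, were below the floor.

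Among the other classes, COL18A1, whose C-terminal fragment is endostatin, read 189.6 with the PSAT1 hairpin against 326 non-silencing in CL1-5, and 178 with PSAT1 against 145 with vector in CL1-0. Its log2 ratio with the hairpin was -0.78, and -0.77 by the second probe set, and the controls differed 2.25-fold and 2.10-fold, higher in CL1-5. The non-silencing array was the brightest of the 4 for both sets. With PSAT1 in CL1-0 the sets gave 0.29 and -0.26, opposite in sign. COL26A1 read 248 with PSAT1 against 94.8 with vector in CL1-0, 2.61-fold higher, and 57.7 with the PSAT1 hairpin against 63.3 non-silencing in CL1-5. Its second probe set did not show that rise, with 51.1 with PSAT1 against 55.0 with vector.

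COL13A1, a transmembrane collagen of cell-matrix junctions, read 116 with the PSAT1 hairpin against 149 non-silencing in CL1-5, and 70.7 with PSAT1 against 79.7 with vector in CL1-0. A probe set not of the _x_at kind gave a wider gap, with 174 with the hairpin against 349 non-silencing (2.01-fold lower) and 12.4 on both CL1-0 arrays, so that the controls differed at least 7.13-fold. COL23A1, also transmembrane, read 97.0 with PSAT1 against 72.7 with vector in CL1-0 (log2 ratio 0.41) and 57.0 with the PSAT1 hairpin against 52.9 non-silencing in CL1-5. COL7A1, the chain of the anchoring fibrils that fix epithelium to its stroma, read 111 against 121 in CL1-0 and 78.8 against 86.9 in CL1-5, in the same order. The 6 fibril-associated collagens above the floor (COL9A1, COL9A2, COL9A3, COL16A1, COL20A1 and COL22A1) and COL25A1 read 26.9 to 75.2, near the floor, with log2 ratios of -0.39 to 0.34.

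**Figure D3:**
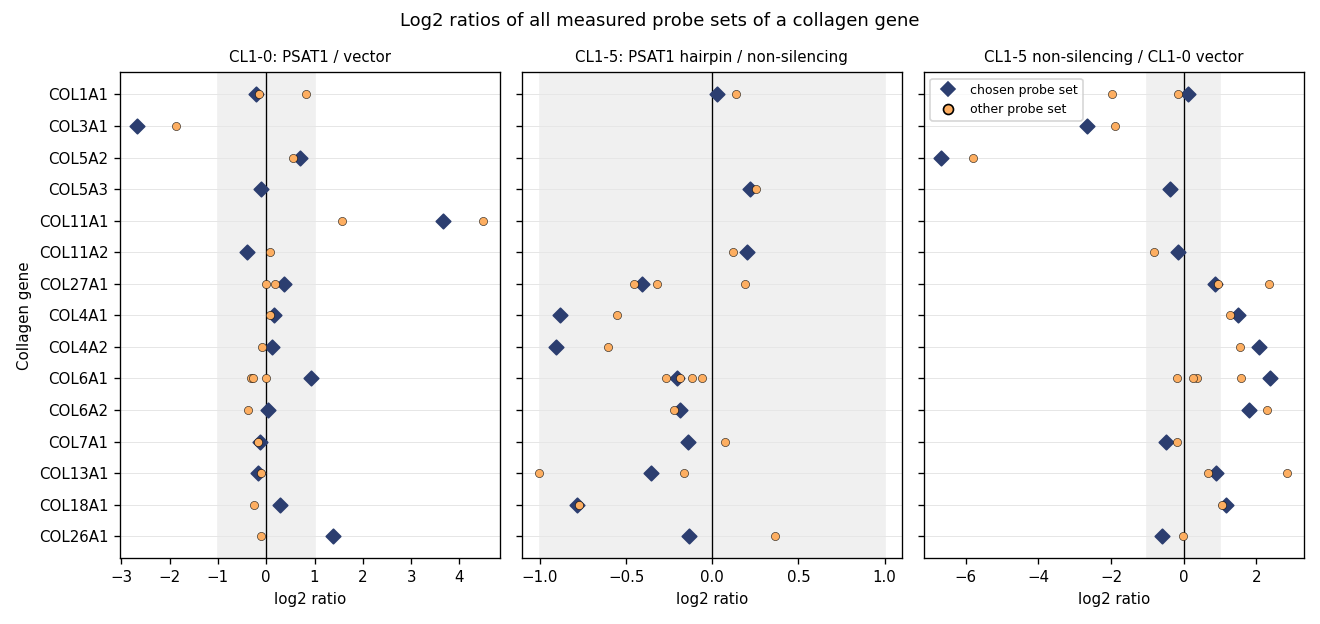
Log2 ratios of all measured probe sets of the collagen genes with more than 1 in any comparison. Diamonds are the chosen probe sets, circles the others, the horizontal axis is the log2 ratio and the band lies within 2-fold. Panels have different horizontal ranges. The probe sets of COL4A1, COL4A2 and COL18A1 all lie below 0 in CL1-5, while those of COL6A1 and COL26A1 part in CL1-0.

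Of the measured collagen genes with another measured probe set, all sets had the sign of the chosen one in 6 of 14 genes in the CL1-0 pair, in 9 of 12 in the CL1-5 pair and in 11 of 13 between the lines. Of the members that rose or fell in CL1-0, COL11A1 and COL3A1 had a second probe set beyond 2-fold the same way, COL26A1 had one of opposite sign and COL4A5 had no other measured set. COL6A3, the fall in CL1-5, had 1 probe set in all.

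Genes that process, bind or break down collagen were read from lists of 94 genes by role, 90 of them with a named probe set. In CL1-0 with PSAT1, 2 of 67 measured genes rose and 0 fell, and in CL1-5 with the PSAT1 hairpin 0 of 71 rose and 1 fell. Of all measured genes, 2.41% rose and 1.0% fell with PSAT1, and 0.389% rose and 0.405% fell with the hairpin. LTBP1, which binds latent TGF-beta in the matrix, read 1352 with PSAT1 against 321 with vector in CL1-0, 4.22-fold higher. TLL2, a protease of the family that removes procollagen C-propeptides, read 271 against 133 in CL1-0, 2.04-fold higher as deposited and under 2-fold with both other scalings. ITGA2, the alpha subunit of a collagen-binding integrin, read 570.2 with the PSAT1 hairpin against 1338 non-silencing in CL1-5, 2.35-fold lower, and was below the floor in CL1-0.

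The enzymes of proline and lysine hydroxylation held no gene at 2-fold with either manipulation. PLOD2, a lysyl hydroxylase of collagen telopeptides, read 167 with PSAT1 against 89.4 with vector in CL1-0 (log2 ratio 0.90), the largest of that list there. P3H4, a partner of lysyl hydroxylase, read 122 with the PSAT1 hairpin against 224 non-silencing in CL1-5 (-0.88), the largest there. The collagen chaperone SERPINH1 read 1807 with PSAT1 against 1824 with vector in CL1-0, and 1186 with the PSAT1 hairpin against 979 non-silencing in CL1-5. The proline and glycine supply list held no 2-fold difference with either manipulation, and its medians were 0.16 with PSAT1 and 0.04 with the hairpin. The TGF-beta list, a pathway known to induce collagen genes, had a median of -0.38 with the hairpin over 10 measured genes. Of these, 9 were negative. With PSAT1 the median was 0.22, with 7 of 10 positive. Over all measured genes the medians were 0.02 with the hairpin and -0.02 with PSAT1, and signs were not counted. The list mixes genes of different roles, so its median is not a measure of signalling. Its largest ratio in CL1-5 was that of the receptor TGFBR2, 318 with the PSAT1 hairpin against 591 non-silencing (-0.90). TGFBR2 was also negative with PSAT1 in CL1-0, at 137 against 175 with vector (-0.36).

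Between the controls, 11 of 77 measured genes of these lists were higher in CL1-5 and 16 lower, beside 5.14% higher and 24.7% lower of all measured genes. The higher genes included MMP1, an interstitial collagenase (4508 in CL1-5 non-silencing against 18.1 in CL1-0 vector, at least 92.0-fold), ITGA2 (at least 27.3-fold), the lysyl oxidase LOXL2 (934 against 44.5, at least 19.1-fold), PLOD2 (1035 against 89.4, 11.6-fold), MMP14 (7.47-fold) and SPARC (at least 6.90-fold). The others were LTBP2 (at least 6.01-fold) and SMAD3, CTSB, FN1 and TGFBR2, at 3.38-fold to 4.93-fold. These 11 were also higher under both other scalings, among 17 higher under quantile normalization and 18 under centring. Of all measured genes, 9.29% and 10.1% were higher under these. The median log2 ratio of the lists was -0.25 as deposited, 0.21 under quantile normalization and 0.35 under centring. Over all measured genes it was -0.48, 0.00 and 0.09 in that order. Only 5 of the 16 lower genes were lower under those scalings, the collagen uptake receptor MRC2 (228 against 756, 3.31-fold), SKIL, PHGDH, TLL2 and MIA2, while FKBP14, LTBP1, P3H4, PEPD, PPIB, PREB, SHMT2, SMAD2, SMAD4, TMEM38B and TRAPPC2 were not.

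**Figure D4:**
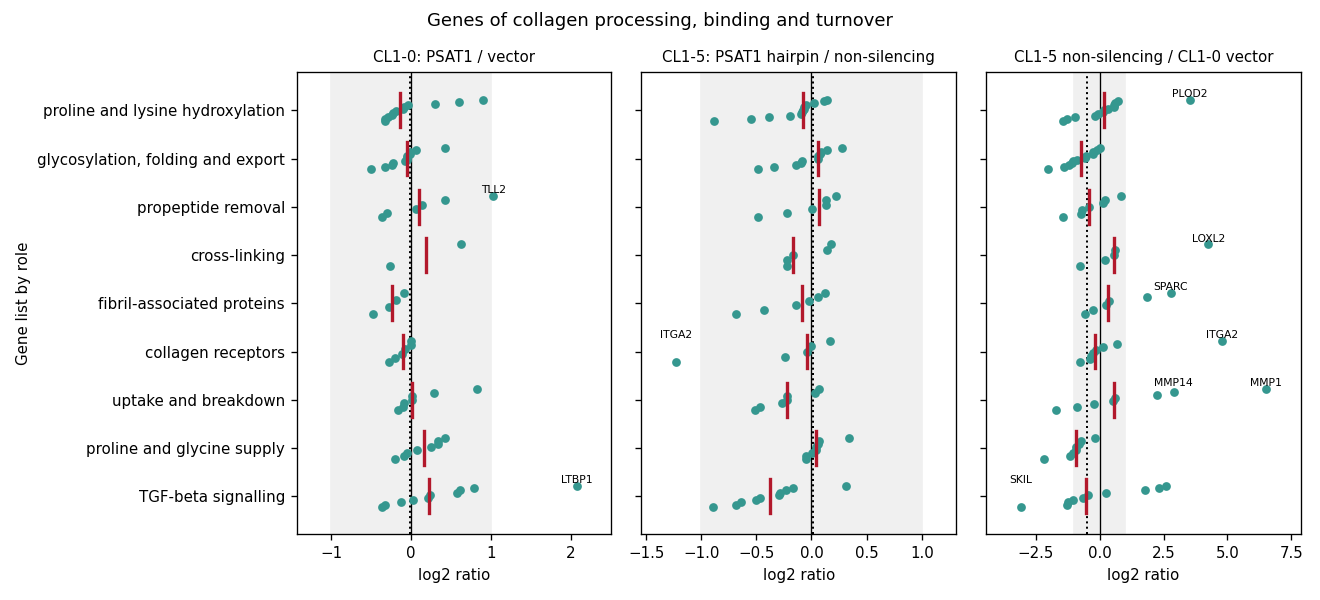
Log2 ratios of genes of collagen processing, binding and turnover by role. Each point is 1 measured gene, red bars are list medians, the band lies within 2-fold, the dotted line is the median of all measured genes, and genes beyond 2-fold (in the right panel beyond a log2 ratio of 2.7) are named. LTBP1 and TLL2 lie beyond 2-fold in CL1-0 and ITGA2 in CL1-5.

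The labels call these cells type II alveolar cells. Of 8 named alveolar type II markers, 6 were above the floor on each array, with SFTPC at 131 with PSAT1 against 149.7 with vector in CL1-0 and 149 with the PSAT1 hairpin against 151 non-silencing in CL1-5. SFTPD and SLC34A2, and the epithelial markers EPCAM, CDH1 and KRT19, were below the floor throughout. The summed signal of 6 epithelial markers moved with the line, at 7599 with the PSAT1 hairpin and 6876 non-silencing in CL1-5, against 798 with PSAT1 and 1011 with vector in CL1-0, mostly through KRT18 (5657, 5308, 635 and 757 in that order). The part of this in the line differences of collagen genes was not tested. CLDN4, a tight junction protein, was the 1 marker past 2-fold with either manipulation, at 29.7 with PSAT1 against 112 with vector in CL1-0 (at least 2.29-fold lower), and its part in the collagen differences there was not tested. Of 8 fibroblast markers, 2 were above the floor on each CL1-0 array (PDGFRB and THY1) and 1 on each CL1-5 array (THY1), and PDGFRA, FAP, DCN, LUM, DPT and PDPN were below it on all. The summed fibroblast marker signal was 277 with PSAT1 against 299 with vector in CL1-0, and 295 with the PSAT1 hairpin against 278 non-silencing in CL1-5. Most of each fibroblast sum came from markers below the floor, so near-equal sums say little about fibroblast content. Of 6 endothelial and immune markers, 1 was above the floor on each CL1-0 array and 2 on each CL1-5 array. In bulk RNA, fewer cells of a kind and less RNA per cell cannot be told apart.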

How the data were processed

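The deposited values are linear signal intensity by probe set, which the authors made with MAS5, per the submitters' processing notes. Its version and scaling target are not given in the sources used here. Labelling started from 6 ug of RNA, per the labels. There were 54675 probe sets, including 62 controls. The platform annotation gave 1 symbol to 41097, several to 1801 and none to 11777. Symbols were updated through a RefSeq gene table (41043 matched), and 59 probe sets of the Y chromosome or X inactivation were left out. Signals were floored at the 50th percentile and log2 transformed. A gene was read from the probe set with the highest mean unfloored log2 signal. No test was run, since each group has 1 array, and this number limits the precision.

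All collagen genes are accounted for, those at 2-fold or more with every array's value. Of the lists by role, genes at 2-fold or more or with the largest ratios are named. Members, lists and rules were chosen with earlier results of these data known. Alternatives were quantile normalization, median centring, floors at the 25th and 65th percentiles, the mean over probe sets, gene-specific probe sets only (no _s, _x or _a suffix), folds of 1.5 and 3, and, chosen after seeing the data, the probe set with the highest mean floored signal. The steps were tested on simulated data, with changes larger than 2-fold put into genes well above the floor. That test did not cover changes near 2-fold, arrays at the floor or probe sets that disagree. Python 3.11.15, numpy 2.4.6, pandas 2.3.3 and matplotlib 3.10.9 were used.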

Additional observations from a re-analysis of the deposited data

How the results depend on the processing

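No paired analysis was possible because each group has 1 array, and for the same reason no array could be left out. Of 75 recomputed collagen counts and medians, 63 stayed within 1.5 times the reported count or within the spread between probe sets of a gene. Of the recomputed log2 ratios of single collagen genes past 2-fold, 55 stayed within that spread and 32 did not. None of these ratios changed sign, and genes with no measured probe set under a setting were left out. That spread belongs to single probe sets and was wider than each reported collagen median, so for medians the rule is loose. The CL1-0 median went from 0.11 to -0.04 with the floor at the 25th percentile. Between the lines the median went from 0.02 to 0.45 under centring and to -0.04 with the mean over probe sets. COL11A1 in CL1-0 stayed beyond 2-fold under each scaling, floor and choice of probe set run. COL6A3 with the hairpin in CL1-5 stayed beyond 2-fold under each scaling and floor. It has 1 probe set, so the settings on probe sets could not change it. In CL1-0, the mean over probe sets left 1 rise (COL11A1) and 0 falls. COL3A1 was then at -0.91, COL26A1 at 0.64 and COL4A5 at 0.69 on the log2 scale. Gene-specific probe sets left 0 falls in CL1-0, since the measured COL3A1 sets are not of that kind, and COL4A5 (CL1-0) and COL18A1 (between the lines) had no measured set of that kind. In CL1-0 a 1.5-fold rule gave 5 rises and a 3-fold rule 1. In CL1-5 with the PSAT1 hairpin, the falls numbered 2 under quantile normalization, with COL4A5 added, 2 with the probe set of highest mean floored signal, with COL13A1 added, and 5 at 1.5-fold. A floor at the 65th percentile gave a collagen median that was -0.36 with the hairpin and 0.72 between the lines. Between the lines, 1 lower gene (COL5A2) was left with the mean over probe sets and with gene-specific sets. COL6A1 there had log2 ratios of 0.55 and 0.27 under those settings, so its higher call rests on the chosen probe set and 1 other. The log2 ratio of COL11A1 in CL1-0 moved with the floor, from a lower bound of 2.60 at the 65th percentile to 4.46 at the 25th. The latter is not a bound, since the vector signal of 28.0 was above that floor of 17.4.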
